A study of Mus musculus with 48 samples.

Results

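The actin partners of the formin FMN2 were followed at the transcript level in the mouse brain. They are 10 genes chosen by name, namely the spire genes Spire1 and Spire2, the profilins Pfn1 and Pfn2, the cofilins Cfl1 and Cfl2, the Arp2/3 subunits Actr2 and Actr3, the neural Wiskott-Aldrich protein gene Wasl and the cordon-bleu gene Cobl. All 10 were among the 48709 genes listed for every library, whether or not reads were found. RNA-sequencing had been done on male C57BL/6J mice in 8 groups, 46 mice in all. The dentate gyrus (DG), the input region of the hippocampus, came from wild-type (Fmn2+/+) mice (n = 5) and mice with a constitutive knockout of Fmn2 (Fmn2-/-, n = 5) at 3 months of age, and from Fmn2+/+ (n = 3) and Fmn2-/- mice (n = 5) at 8 months of age. Mice of a cross of the Fmn2 knockout with the amyloid mouse line labelled APP, in which transgenes, mutant human APP among them, are driven by the neuronal Thy1 promoter, were labelled FMN2-/-_APP (n = 7) or FMN2 +/+ APP (n = 9) at 3 months, so that both of these groups carry the transgenes. A last pair consisted of APP mice (n = 6) and wild-type mice (n = 6) labelled as 4 months old. Whole tissue was used throughout, in which fewer cells of a type and less RNA per cell cannot be told apart.

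Actin exists as single subunits and as filaments, and the proteins studied here govern the passage between both states. Formins such as FMN2 stay at the growing (barbed) end of a filament and speed up its elongation, and they accept subunits from profilin. Spire proteins bind several actin subunits in a row, start new filaments and bind FMN2 directly, a partnership best known from the oocyte, in which it moves vesicles and the spindle. The Arp2/3 complex starts branches on existing filaments once proteins of the Wiskott-Aldrich family have switched it on, cordon-bleu starts filaments on its own, and cofilin cuts old filaments so that the subunits return to the pool. In neurons this turnover shapes dendritic spines and synaptic terminals.

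Library depth was between 6818809 and 43921030 counted reads per mouse, and 7 of the 8 libraries of 8 months held no more than 11675280, the exception being Fmn2+/+ replicate 1 with 43921030. The check of the genotype was the Fmn2 transcript itself. It was at 102.6 ± 7.35 CPM (read counts scaled to a common library size, with TMM factors) in 3-month-old Fmn2+/+ mice and at 24.8 ± 2.39 in Fmn2-/- mice (SD, n = 5 each), and at 90.9 ± 15.2 (SD, n = 3) and 24.3 ± 2.68 (SD, n = 5) at 8 months. In the cross it went against the labels, at 90.9 ± 6.86 (SD, n = 7) in the libraries labelled FMN2-/-_APP and at 20.5 ± 1.48 (SD, n = 9) in those labelled FMN2 +/+ APP. In the 4-month mice, APP and wild type alike, it was between 95.6 and 114 CPM. Replicates 2 and 3 of the 8-month-old Fmn2-/- mice were nearly identical, with a chi-square per degree of freedom of 1.62 between their counts, while in this group any other pair of mice gave 3.50 to 6.40, and 1.72 and 2.15 were found for the repeat runs of single mice of the cross. They were kept as separate mice, as labelled, and results that change when they are summed are given below. The 4-month libraries carry the tissue label dentate gyrus, but their titles name the prefrontal cortex. Their summed level of 6 granule cell markers, between 153 and 185 CPM, lay below the 615 to 1228 CPM of the other mice, the granule cell genes C1ql2 and Dsp averaged under 1 CPM, and the summed level of 7 cortical neuron markers (568.1 to 649 CPM) lay above that of the other mice (122 to 337 CPM).

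All 10 genes were well above the detection limit, and the lowest count of any of them in any mouse was 88 reads (Spire2, 8-month-old Fmn2+/+). Compared per kilobase of exon in 3-month-old Fmn2+/+ mice, Cfl1 (219.9 CPM per kb), the main cofilin of non-muscle cells, and Pfn2 (199.5 CPM per kb), the profilin of neurons, stood at the top and their ranges overlapped. Actr2 and Actr3, which form the actin-like core of the Arp2/3 complex, followed at 57.9 and 28.9 CPM per kb, with Pfn1, the profilin of most other tissues, at 43.2 and Wasl, the activator of Arp2/3, at 34.2 CPM per kb between them. Spire1 and the muscle-type cofilin Cfl2 were at 25.3 CPM per kb each and could not be ranked. Spire2 (5.89 CPM per kb) and Cobl (3.13 CPM per kb) were the lowest. All other neighbours in this order did not overlap between mice. In the 6 groups of DG mice the group means of the 9 genes other than Cobl stayed within a factor of 1.38 of each other, gene by gene, while Cobl spanned a factor of 2.05.

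**Figure D1:**
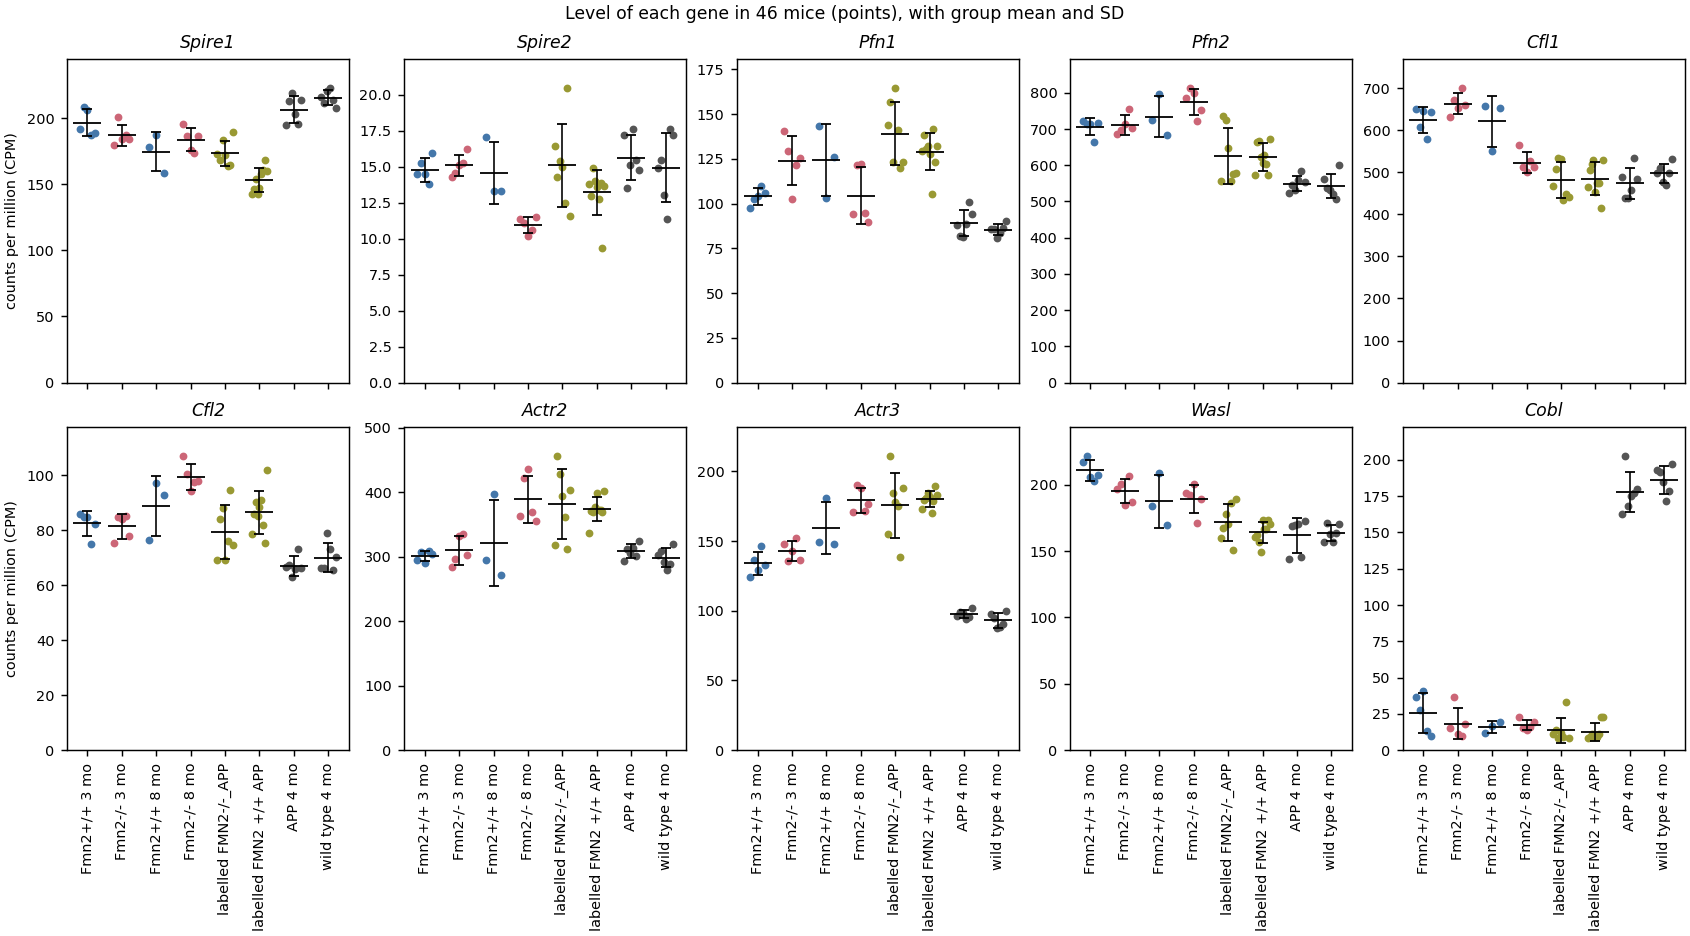
Level of each of the 10 genes (y axis, CPM from 0) in every mouse of the 8 groups (x axis), with a point per mouse and the group mean ± SD in black. Blue marks Fmn2+/+ mice, red Fmn2-/- mice, olive the cross by its labels and grey the 4-month mice. Spire2 lay between 10.2 and 11.5 CPM in 8-month-old Fmn2-/- mice and at 13.3 CPM or above in the other 3 groups of that experiment, and Cobl lay between 163 and 203 CPM in the 4-month mice against at most 40.7 CPM elsewhere.

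The first question was whether loss of FMN2 changes its partners in young mice. At 3 months none of the 10 passed the test, which asked for an adjusted p under 0.05 (the quasi-likelihood test of edgeR, adjusted by Benjamini-Hochberg over all genes tested, as for every adjusted p given here) and a log2 difference of at least 0.25. In this comparison 0.0301% of 16630 genes passed. Likewise none had groups that did not overlap, against 2.71% of these genes. At an unadjusted p under 0.05 there were 2 of the 10, Pfn1 and Wasl, against 1750 of the 16630 genes. DESeq2 called none of the 10. Pfn1 was at 97.4, 102.3, 104.3, 109.6 and 106.1 CPM in the Fmn2+/+ mice and at 141, 129, 102.7, 122 and 125 CPM in the Fmn2-/- mice. One Fmn2-/- mouse, replicate 4, lay within the Fmn2+/+ range and the other 4 above it. That library also held 4002 CPM of the choroid plexus gene Ttr, against at most 40.3 CPM in the other mice of 3 months in this experiment. Without it Pfn1 was at 0.31 (adjusted p = 0.191) and did not pass either. The log2 difference was 0.25 (SE 0.074, adjusted p = 0.283). Wasl had a log2 difference of -0.12 (SE 0.047, adjusted p = 0.424). For Spire1, Spire2, Pfn2, Cfl1, Cfl2, Actr2 and Actr3 the log2 differences were between -0.07 (Spire1) and 0.09 (Actr3), and their 95% intervals reached no further than -0.18 and 0.21. For Cobl, at -0.49 (SE 0.42), the interval from -1.41 to 0.43 left the size of a difference undetermined. The median over the 10 was 0.01 on the log2 scale, against 0.00 over all genes tested. All Fmn2+/+ mice of this age were sequenced on lane 5 and 4 of the 5 Fmn2-/- mice on lane 6.

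At 8 months again none of the 10 passed, while 1.13% of 14665 genes did. At an unadjusted p under 0.05 there were 3 of the 10 (Spire2, Cfl1 and Actr2), against 3419 of the 14665 genes. DESeq2 called 1 of the 10, Spire2, against 733 of the 14665 genes. Spire2 was at 17.1, 13.3 and 13.3 CPM in the 3 Fmn2+/+ mice and at 11.3, 11.1, 10.2, 10.6 and 11.5 CPM in the 5 Fmn2-/- mice. It was the only one of the 10 genes whose groups did not overlap, against 11.7% of all genes tested. Its log2 difference was -0.44 (SE 0.11, adjusted p = 0.071). Cfl1 was at 659, 552 and 653 CPM in Fmn2+/+ mice and at 564, 513, 499.9, 526.1 and 513 CPM in Fmn2-/- mice. Replicate 2 of the Fmn2+/+ group fell within the range of the Fmn2-/- mice, and the log2 difference was -0.24 (SE 0.076, adjusted p = 0.109). Actr2 had 296, 398 and 271 CPM in Fmn2+/+ mice against 363, 422, 436, 370 and 356 CPM in Fmn2-/- mice, with the same Fmn2+/+ replicate 2 as the exception. The log2 difference of Actr2 was 0.28 (SE 0.12, adjusted p = 0.185). Without Fmn2+/+ replicate 2, the shallowest library of the study, 5 of the 10 genes passed the test, Spire2 and Cfl1 lower and Cfl2, Actr2 and Actr3 higher in Fmn2-/- mice, and 3087 genes passed in all. Without Fmn2+/+ replicate 1, the deepest library and the only one of this age on lane 6, none of the 10 passed, against 4 of 14928 genes.

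The genotype difference at 8 months was then set against that at 3 months in 1 fit of the 18 mice. Spire2 and Cfl1 passed this test, 2 of 10, where 3.73% of 17046 genes passed, 2.99% with the negative sign that both had. For Spire2 the genotype difference was lower at 8 months than at 3 months by a log2 value of -0.47 (SE 0.12, adjusted p = 0.0375), and for Cfl1 by -0.33 (SE 0.087, adjusted p = 0.041). DESeq2 called 3, Pfn1 in addition, against 1401 of the 17046 genes. Pfn1 had the largest value of the same sign, -0.51 (SE 0.15, adjusted p = 0.0592), was at -0.49 with DESeq2 (adjusted p = 0.0231) and at -0.55 without the Ttr-rich Fmn2-/- replicate 4 of 3 months (adjusted p = 0.0397). This followed from levels of 103.9 ± 4.51 and 124 ± 13.9 CPM in young Fmn2+/+ and Fmn2-/- mice (SD, n = 5 each) and of 124 ± 20.1 (SD, n = 3) and 104.4 ± 16.0 CPM (SD, n = 5) in old ones. The other 7 genes did not pass, with log2 values between 0.07 (Pfn2) and 0.67 (Cobl, SE 0.58). Leaving out single mice, Spire2 kept its call in 6 of 18 fits and Cfl1 in 4 of 18. Both calls were lost without the filter on low counts, with an offset for transcript length and GC content, or after summing the old Fmn2-/- mice 2 and 3. Over the fits with 1 mouse left out between 0 and 4 of the 10 genes passed, 4 of them without the 8-month-old Fmn2+/+ replicate 2. In that fit 2791 of 17545 genes passed.

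Among the comparisons of the Fmn2 experiment the 10 genes passed most often between 3 and 8 months within Fmn2-/- mice, where 5 of 10 passed the test, against 6.44% of 17046 genes. Spire2 and Cfl1 fell, where 3.91% of all genes did, and Cfl2, Actr2 and Actr3 rose, where 2.52% did. The same 5 genes were those whose age groups did not overlap, against 9.22% of all genes. Spire2 (ENSMUSG00000010154, chr8:123332713-123369515 in mm10) fell from 14.3, 14.6, 15.1, 15.3 and 16.2 CPM to the 10.2 to 11.5 CPM given above. Every old knockout mouse was below every young one, with a log2 difference of -0.46 (SE 0.08, adjusted p = 0.00177). Cfl1 (ENSMUSG00000056201, chr19:5490455-5495201) fell from between 631 and 699 CPM to between 499.9 and 564 CPM. This was a log2 difference of -0.34 (SE 0.057, adjusted p = 0.00161). Of its exons, 468 bases are shared with Snx32 on the opposite strand. The strand setting is not given in the sources used here, so reads of both may not have been told apart there.

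Among the genes that rose in Fmn2-/- mice, the 2 Arp2/3 subunits moved by the same amount. Actr3 (ENSMUSG00000026341, chr1:125392905-125435727) was at 148, 136, 143, 152 and 137 CPM at 3 months and at 171, 190, 188, 171 and 176 CPM at 8 months. The log2 difference was 0.33 (SE 0.062, adjusted p = 0.00279). Actr2 (ENSMUSG00000020152, chr11:20062304-20112913) was at 285, 297, 332, 336 and 302 CPM and then at 363, 422, 436, 370 and 356 CPM, again without overlap. Its log2 difference was 0.33 (SE 0.084, adjusted p = 0.0184). The call was lost when replicate 2 or replicate 3 of the old Fmn2-/- mice was left out (adjusted p = 0.054 and 0.0628). It was also lost when both were summed to 1 sample (adjusted p = 0.0558). These libraries held 570 and 540 CPM of the choroid plexus gene Ttr, against 5.88 to 69.6 CPM in the other old Fmn2-/- mice. The part of choroid plexus tissue in Actr2 was not tested. Cfl2 (ENSMUSG00000062929, chr12:54858809-54862877) rose from 75.4, 84.8, 84.2, 85.1 and 77.9 CPM to 106.99, 100.4, 94.4, 97.8 and 97.9 CPM, a log2 difference of 0.29 (SE 0.063, adjusted p = 0.00699). Pfn1 (ENSMUSG00000018293, chr11:70651850-70654644) was lower by -0.24 (SE 0.099, adjusted p = 0.143) and Pfn2 (ENSMUSG00000027805, chr3:57841895-57848079) higher by 0.13 (SE 0.051, adjusted p = 0.137), neither past the test. Spire1 (ENSMUSG00000024533), Wasl (ENSMUSG00000029684, chr6:24613805-24665009) and Cobl (ENSMUSG00000020173, chr11:12236608-12464960) had log2 differences of -0.02, -0.04 and -0.05. All old Fmn2-/- mice were sequenced on lane 7 and all young ones on lanes 5 and 6, and the old libraries were shallower, so that age, lane and depth cannot be told apart here.

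In Fmn2+/+ mice 1 of 10 genes passed between 3 and 8 months, against 9.21% of 17046 genes, 5.37% upward. Actr3 rose from 124, 137, 130, 147 and 133 CPM to 149, 181 and 148 CPM, a log2 difference of 0.25 (SE 0.071, adjusted p = 0.0288). It lay just above the fold minimum and fell below it with other size factors, with DESeq2 or without the filter, kept its call in 4 of 18 fits with 1 mouse left out, and was also the only one of the 10 whose age groups did not overlap (16.7% of all genes did not). Spire2 (0.01, SE 0.09) and Cfl1 (0.00, SE 0.066, 95% interval -0.14 to 0.14) showed values near 0 in Fmn2+/+ mice. Pfn1 was higher by 0.27 (SE 0.11, adjusted p = 0.131), Spire1 lower by -0.16 (SE 0.063, adjusted p = 0.0984) and Wasl lower by -0.17 (SE 0.067, adjusted p = 0.112). Without Fmn2+/+ replicate 2 of 8 months, Pfn1 and Wasl passed and Actr3 did not, against 2994 of 17545 genes that passed. All young Fmn2+/+ mice were sequenced on lane 5 and the old ones on lanes 6 and 7. Old replicates 2 and 3 held 6818809 and 8381078 reads, against at least 19554931 in the young mice. Age and lane thus cannot be told apart in Fmn2+/+ mice either, and depth differed as well. These age comparisons share mice with the genotype comparisons above, so their values are not independent of them.

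**Figure D2:**
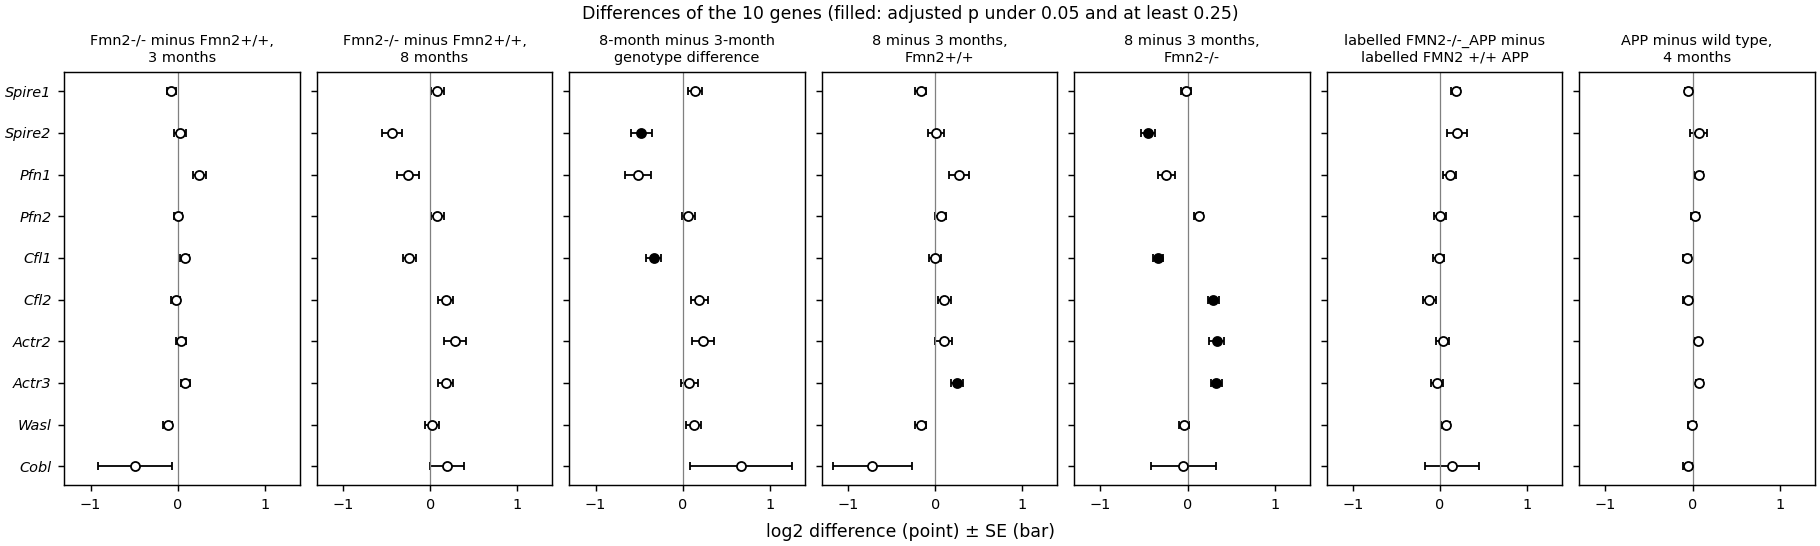
Log2 difference (x axis, point) ± SE (bar) of each of the 10 genes (rows) in 7 comparisons (panels), with filled points where the adjusted p was under 0.05 and the difference at least 0.25. Filled points stand at Spire2 and Cfl1 in the age by genotype panel, at Actr3 in the Fmn2+/+ age panel and at Spire2, Cfl1, Cfl2, Actr2 and Actr3 in the Fmn2-/- age panel.

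Ratios between paralogs do not depend on how libraries are scaled to each other. They use the same counts as the tests above and so add no separate evidence. How often the ratios of other gene pairs do not overlap was not computed. No offset was applied to the ratios, and GC content differs within the pairs (Cfl1 51.2% and Cfl2 36.9%, Spire1 47.9% and Spire2 61.2%). The log2 ratio of Cfl1 to Cfl2 (counts per kb of exon) was between 3.15 and 3.29 in the 5 young Fmn2-/- mice and between 2.55 and 2.63 in the 5 old ones. In the 3 old Fmn2+/+ mice it was 2.71, 3.01 and 3.30, all above the old Fmn2-/- mice. In linear terms Cfl1 exceeded Cfl2 9.36-fold in young and 6.04-fold in old Fmn2-/- mice. For Spire1 over Spire2 the log2 ratio was between 1.88 and 2.15 in young and between 2.39 and 2.48 in old Fmn2-/- mice, against 1.76 to 2.18 in old Fmn2+/+ mice, so that the old Fmn2-/- group again overlapped neither. The spread among old Fmn2-/- mice was small for both ratios (SD 0.028 and 0.04), whereas the 3 old Fmn2+/+ mice differed widely (SD 0.30 and 0.21). For Pfn1 over Pfn2 the groups overlapped in each comparison of 2 groups, and the share of Pfn1 in both profilins together was 16.5% ± 1.63 (SD, n = 5) in old Fmn2-/- mice and between 17.8% and 20.4% in the other 3 groups of this experiment. The old Fmn2-/- mice did not stand outside the cross, in which the cofilin ratio was between 2.45 and 3.14 (labelled FMN2-/-_APP) and between 2.55 and 2.83 (labelled FMN2 +/+ APP) and the spire ratio reached 2.40 and 2.54. In the cross the Pfn1 share was 24.7% ± 2.73 (SD, n = 7) and 23.3% ± 1.71 (SD, n = 9).

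**Figure D3:**
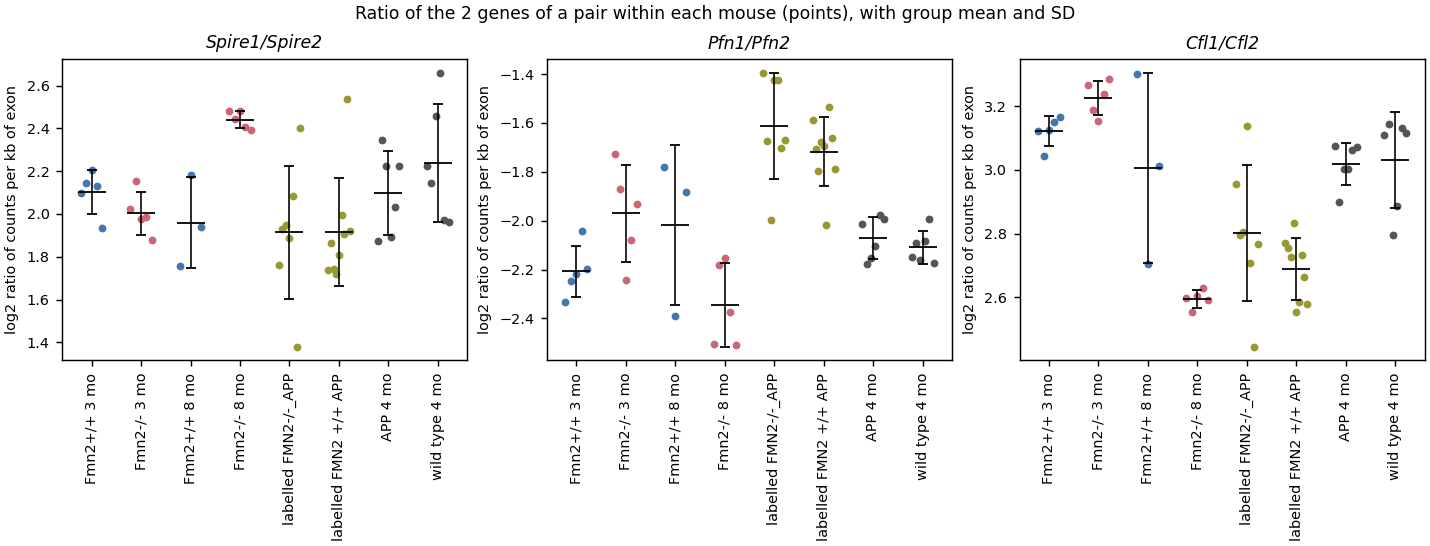
Log2 ratio of counts per kb of exon (y axis) for Spire1 over Spire2, Pfn1 over Pfn2 and Cfl1 over Cfl2 in every mouse (points) of the 8 groups (x axis), with the group mean ± SD. The old Fmn2-/- mice lie at 2.39 to 2.48 for the spire pair and at 2.55 to 2.63 for the cofilin pair, outside the ranges of the other 3 groups of their experiment.

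The 5 genes that passed in old Fmn2-/- mice are shown with the 250 bases before their start, because the study searched the promoters of its deregulated genes for motifs. The sequences are those of RefSeq on GRCm38.p6, in which 9 of the 10 genes were found and Spire1 was not. Capitals mark CCCGCCCC, the GC box recognised by SP1-type factors, and CCGGAAGC, a site of ETS factors such as ELK, on either strand, the letters being those of the study's own motif search. In the printed sequences no match of one motif overlapped a match of the other. The windows searched also held the 50 bases after the start, which are not printed.
Spire2, chr8:123332463-123332712 (+ strand): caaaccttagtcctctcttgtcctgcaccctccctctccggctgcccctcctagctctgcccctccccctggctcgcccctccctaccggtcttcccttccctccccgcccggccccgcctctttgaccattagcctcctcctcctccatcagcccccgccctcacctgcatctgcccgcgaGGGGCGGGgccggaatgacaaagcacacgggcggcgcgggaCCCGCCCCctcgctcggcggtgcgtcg
Cfl1, chr19:5490205-5490454 (+ strand): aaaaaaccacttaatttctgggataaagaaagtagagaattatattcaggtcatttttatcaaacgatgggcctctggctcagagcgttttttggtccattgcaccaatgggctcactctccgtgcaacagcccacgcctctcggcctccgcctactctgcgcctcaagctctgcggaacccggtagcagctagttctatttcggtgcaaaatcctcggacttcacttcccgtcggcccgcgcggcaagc
Cfl2, chr12:54862878-54863127 (- strand): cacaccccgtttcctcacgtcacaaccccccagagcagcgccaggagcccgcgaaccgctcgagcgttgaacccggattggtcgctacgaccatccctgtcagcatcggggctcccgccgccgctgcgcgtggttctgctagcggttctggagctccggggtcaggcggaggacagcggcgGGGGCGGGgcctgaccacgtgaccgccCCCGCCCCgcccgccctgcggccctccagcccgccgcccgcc
Actr2, chr11:20112952-20113201 (- strand): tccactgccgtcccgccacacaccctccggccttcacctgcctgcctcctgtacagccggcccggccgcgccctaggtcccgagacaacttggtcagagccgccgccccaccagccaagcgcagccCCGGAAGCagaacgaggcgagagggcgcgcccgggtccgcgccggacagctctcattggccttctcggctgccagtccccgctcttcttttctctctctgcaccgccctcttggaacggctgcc
Actr3, chr1:125435728-125435977 (- strand): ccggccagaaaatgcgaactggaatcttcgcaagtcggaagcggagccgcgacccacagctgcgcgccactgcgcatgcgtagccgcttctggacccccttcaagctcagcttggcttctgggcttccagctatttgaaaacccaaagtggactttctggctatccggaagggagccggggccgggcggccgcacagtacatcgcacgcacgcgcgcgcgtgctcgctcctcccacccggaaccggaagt
Spire2 and Cfl2 each held CCCGCCCC once on each strand, and Cfl1 held it once, 14 bases into the transcript and so outside the printed part. Of the 9 genes with a window, 5 held this motif (Spire2, Cfl1, Cfl2, Pfn1 and Wasl), against 16.5% of all 32851 promoter windows of this length. For both motifs the members were counted by gene, over 10 windows. The share of all promoters is by window, whether or not the gene is expressed. CCGGAAGC was found in Actr2, beginning 124 bases before the start, and in Wasl, against 2.98% of all windows. Neither motif was in the window of Actr3. The motif was thus shared by genes that fell (Spire2 and Cfl1), a gene that rose (Cfl2) and genes that did not pass (Pfn1 and Wasl).

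The direction in which the 5 genes moved went along with the base composition of their transcripts. The 3 that rose in Fmn2-/- mice have a GC content of 36.9% (Cfl2), 40.3% (Actr2) and 43.8% (Actr3) over their longest transcript, and the 2 that fell of 51.2% (Cfl1) and 61.2% (Spire2). Pfn1, lower without passing, has 59.2%. Wasl, with 43.7%, and Pfn2, with 52.0%, did not follow this order. With a length and GC offset fitted for each library, Cfl1 (-0.33, adjusted p = 0.00132) and Actr3 (0.26, adjusted p = 0.0083) still passed between the ages in Fmn2-/- mice. Spire2 was then at -0.26 (adjusted p = 0.0508), Actr2 at 0.21 (adjusted p = 0.0874) and Cfl2 at 0.15 (adjusted p = 0.224). At 8 months the same offset took the genotype difference of Spire2 from -0.44 to -0.17 and that of Pfn1 from -0.25 to -0.03, and left that of Cfl1 at -0.20. Whether library composition had a part in the differences was not tested beyond this offset.

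**Figure D4:**
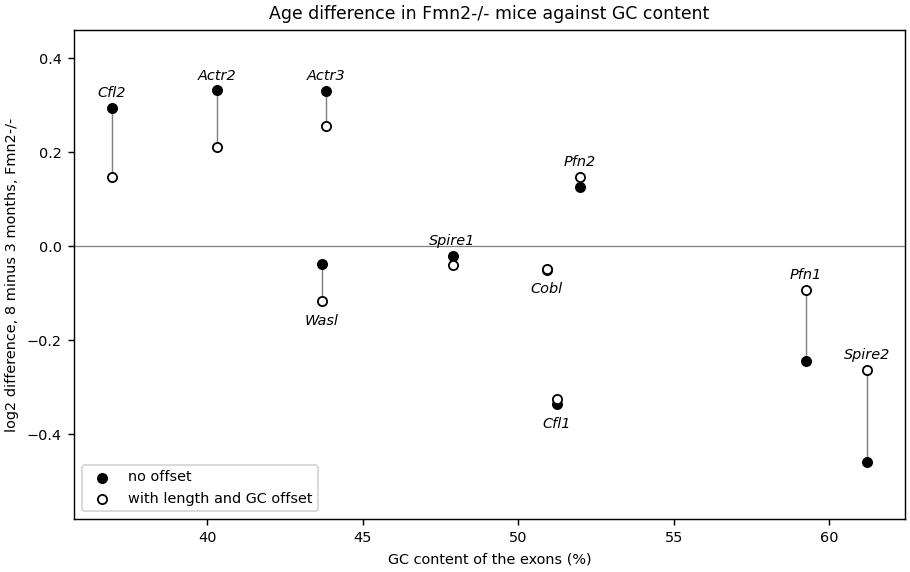
Log2 difference between 8 and 3 months in Fmn2-/- mice (y axis) against the GC content (x axis, percent) for the 10 genes, without (filled) and with (open) a length and GC offset, joined by a line for each gene. The GC content, named on the axis as that of the exons, is that of the longest transcript. With the offset Spire2 moves from -0.46 to -0.26 and Cfl2 from 0.29 to 0.15, while Cfl1 stays at -0.33 or below and Actr3 at 0.26 or above.

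The study next asked how loss of FMN2 acts together with amyloid deposition. In the cross none of the 10 genes passed between the libraries labelled FMN2-/-_APP and those labelled FMN2 +/+ APP, against 1.44% of 16656 genes, and DESeq2 called none. None had groups that did not overlap, against 0.546% of all genes. At an unadjusted p under 0.05 there was 1, Spire1, a partner that binds formins directly, against 2772 of the 16656 genes. Spire1 was at 163, 172 and 189 CPM (lowest, median and highest of 7 mice) in the libraries labelled FMN2-/-_APP and at 143, 154 and 168 CPM (9 mice) in those labelled FMN2 +/+ APP. The ranges overlapped, and the log2 difference, by the labels, was 0.18 (SE 0.048, adjusted p = 0.0644). With the length and GC offset it was again 0.18, with an adjusted p of 0.0218, still under the fold minimum. Since Fmn2 itself was 4.44-fold higher in the libraries labelled FMN2-/-_APP, this direction holds for the labels and not for the measured Fmn2 level. For the other 8 genes besides Cobl the log2 differences lay between -0.12 (Cfl2) and 0.19 (Spire2, SE 0.11), and Actr2 (0.03, interval -0.13 to 0.18), Pfn2 (0.00, -0.14 to 0.15) and Cfl1 (-0.01, -0.15 to 0.12) were close to 0. Replicates 4 and 5 labelled FMN2 +/+ APP held 8809 and 5824 CPM of Ttr, a choroid plexus gene, against at most 343 CPM in the other mice of the cross. Without them none of the 10 passed either, and Spire1 was at 0.17 (adjusted p = 0.174).

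At 4 months, APP and wild-type mice differed in none of the 10 genes by the test, against 3.23% of 16733 genes. None was at an unadjusted p under 0.05, against 2396 of the 16733 genes, and none was called by DESeq2. The groups overlapped for all 10, where 3.37% of all genes did not. The log2 differences lay between -0.06 (Cfl1) and 0.08 (Actr3), and no 95% interval reached beyond -0.16 or 0.27. The APP mice did show a response elsewhere, as 6 of 6 microglia markers rose, among them the complement gene C1qa (35.1 ± 1.45 to 87.3 ± 10.5 CPM, SD, n = 6 each, adjusted p = 7.83e-10). All APP mice were sequenced on lane 7 and all wild-type mice on lane 5, so that lane and genotype cannot be told apart in this pair.

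Cobl set the 4-month mice apart from all others. It was at 163, 176 and 203 CPM (lowest, median and highest of 6) in APP mice and at 171, 188 and 197 CPM in wild-type mice of this pair. In the other 34 mice it was between 8.4 and 40.7 CPM. Wild-type mice of 4 months and 3-month-old Fmn2+/+ mice were compared directly, a comparison in which tissue as named in the titles, age and experiment differ together and cannot be told apart. Of the 10 genes, 7 passed, against 64.7% of 16661 genes (32.1% higher and 32.6% lower), and 6 did not overlap, against 57.9%, so that the share among the 10 was near that of all genes. Cobl was higher in the 4-month mice by 2.82 on the log2 scale (SE 0.29, adjusted p = 4.2e-07), 7.08-fold. The 6 others that passed were lower, Actr3 by -0.57 (SE 0.048, adjusted p = 4.69e-08), Pfn2 by -0.43, Wasl by -0.42, Cfl1 by -0.38, Pfn1 by -0.33 and Cfl2 by -0.29. Actr2 (-0.06, SE 0.038), Spire1 (0.08, SE 0.041) and Spire2 (-0.03, SE 0.097) did not pass, although Actr2 and Actr3 encode subunits of the same complex. With the length and GC offset Spire2 passed as well (-0.43), Wasl (-0.21) and Cfl2 (-0.11) no longer did, and Actr2 turned to 0.18.

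Within the DG mice the group means of Cobl spanned a wider range than those of the other 9 genes, and its level is given here beside Cux2, 1 of the 7 cortical markers, which was chosen after the values were seen. In 3-month-old Fmn2+/+ mice it was at 36.5, 27.8, 40.7, 12.9 and 9.65 CPM, in the order of which the upper-layer cortical gene Cux2 was at 23.5, 20.2, 30.7, 12.2 and 14.02 CPM. The 3 mice with more Cobl were those with more Cux2. In 3-month-old Fmn2-/- mice replicate 2 stood out with 36.7 CPM of Cobl, against 9.98 to 18.1 CPM in the others, with Cux2 at 22.9 and at 15.4 to 23.7 CPM. In the cross, replicate 7 of those labelled FMN2-/-_APP held 32.9 CPM of Cobl and 21.6 CPM of Cux2, against at most 13.9 and 13.1 CPM in the others of that label. Replicates 8 and 9 of those labelled FMN2 +/+ APP held 22.6 and 23.2 CPM of Cobl with 10.6 and 13.6 CPM of Cux2, within the range of their group for Cux2. Among the old Fmn2-/- mice the highest Cobl (22.9 CPM) came with 12.1 CPM of Cux2, where the others had 11.5 to 14.1 CPM. In each group of the Fmn2 experiment the mouse with the highest Cobl also had the highest summed level of all 7 cortical markers. That sum was 337 CPM in young Fmn2+/+ and 256 CPM in young Fmn2-/- mice. In old mice it was 205 CPM (Fmn2+/+) and 236 CPM (Fmn2-/-). In the cross the sum did not follow Cobl throughout. Replicate 9 labelled FMN2 +/+ APP had the highest Cobl and the lowest sum of its group (122 CPM), and replicate 7 labelled FMN2-/-_APP had a sum of 147 CPM, within the 137 to 175 CPM of the others. The part of cortical tissue in the spread of Cobl was not tested.

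**Figure D5:**
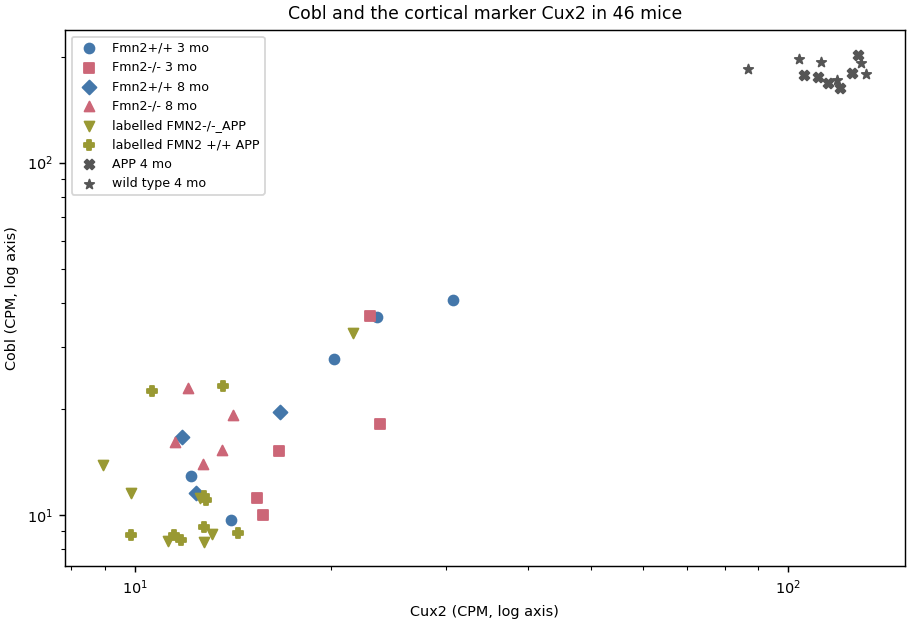
Cobl (y axis) against the cortical gene Cux2 (x axis) in each of the 46 mice, both in CPM on log axes, with symbols for the 8 groups. The 12 mice of 4 months lie at 163 to 203 CPM of Cobl and 87 to 132 CPM of Cux2, and the other 34 mice at 8.4 to 40.7 CPM and 8.95 to 30.7 CPM.

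The other genes of the actin pathway were read from 7 lists (formins, further Arp2/3 subunits, activators and inhibitors of Arp2/3, the cofilin cycle, actin monomers with their binders, and filament ends), 77 genes without Fmn2. None of the 76 tested passed between genotypes at 3 months (8 at an unadjusted p under 0.05, none with DESeq2), and none of 72 at 8 months (14 at an unadjusted p under 0.05, 1 with DESeq2). In the cross none of 76 passed either (12 at an unadjusted p under 0.05, 1 with DESeq2). Of all genes, 0.0301%, 1.13% and 1.44% passed in these 3 comparisons. An unadjusted p under 0.05 was found for 1750 of 16630, 3419 of 14665 and 2772 of 16656 genes. The largest evidence at 3 months was for Arpc1a, an Arp2/3 subunit, at 0.24 (SE 0.05, adjusted p = 0.141), and at 8 months for Whamm, an activator of Arp2/3 at membranes, at -0.45 (SE 0.14, adjusted p = 0.101). In the age by genotype fit 3 of 76 passed, to be read against 3.73% of all genes. The formins Diaph2 (0.53, SE 0.13, adjusted p = 0.0354) and Fmn1 (0.75, SE 0.20, adjusted p = 0.0449), the closest relative of Fmn2, passed upward and Arpc1a (-0.29, SE 0.075, adjusted p = 0.0372) downward.

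Between 3 and 8 months, 6 of 76 listed genes passed in Fmn2-/- mice (2 up, 4 down) and 8 of 76 in Fmn2+/+ mice (3 up, 5 down), to be read against 6.44% and 9.21% of all genes. Age and lane differed together in both genotypes, so these values cannot be assigned to age alone. Tmsb4x, the thymosin that holds actin subunits in reserve, rose in both, from 946 ± 43.5 to 1223 ± 134 CPM (SD, n = 5 each) in Fmn2-/- mice and from 801 ± 57.8 (SD, n = 5) to 1169 ± 42.8 CPM (SD, n = 3) in Fmn2+/+ mice. In Fmn2-/- mice Wipf1, a partner of Wiskott-Aldrich proteins, also rose (0.35, SE 0.096, adjusted p = 0.0305). Limk1, the kinase that switches cofilin off, fell by 0.36 (SE 0.10, adjusted p = 0.0342) there, beside the formin Fmnl1 (-0.26), the elongation factor Evl (-0.33) and the Arp2/3 subunit Arpc3 (-0.29), so that Arpc3 moved opposite to Actr2 and Actr3. In Fmn2+/+ mice Arpc1a (0.39) and the WAVE complex subunit Brk1 (0.33) rose, while the formins Fmn1 (-0.80), Diaph2 (-0.42) and Daam1 (-0.30), the cofilin kinase gene Tesk1 (-0.43) and the WAVE complex subunit Cyfip2 (-0.37) fell. The median log2 difference of the listed genes was -0.04 in Fmn2-/- and -0.03 in Fmn2+/+ mice, against -0.01 and 0.01 over all genes.

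In APP mice of 4 months 4 of 76 listed genes passed, to be read against 3.23% of all genes. Arpc1b (10.3 ± 1.27 to 15.7 ± 1.69 CPM, SD, n = 6 each) and Was (1.30 ± 0.19 to 2.21 ± 0.25 CPM), which are best known from blood and immune cells, rose, and the formins Inf2 (-0.58, SE 0.12, adjusted p = 0.0048) and Fmnl1 (-0.30, SE 0.047, adjusted p = 0.000455) fell. The summed level of the 6 microglia markers was between 365 and 460 CPM in these APP mice and between 239 and 257 CPM in the wild-type mice, and its part in Arpc1b and Was was not tested. The 6 oligodendrocyte markers were lower in APP mice, all at an unadjusted p under 0.05, with a median log2 difference of -0.79. Their summed level was between 1359 and 2080 CPM in APP mice and between 2208 and 6205 CPM in wild-type mice (median 2486), and its part in Inf2 and Fmnl1 was not tested. Between the 4-month wild-type and the 3-month Fmn2+/+ mice 47 of 75 listed genes passed (22 higher, 25 lower), to be read against 64.7% of all genes. The Arp2/3 subunits Arpc2 (-1.299), Arpc5 (-1.13) and Arpc3 (-0.68) were lower like Actr3, as were the WAVE complex subunits Abi1 (-0.99), Cyfip1 (-0.96) and Nckap1 (-0.67) and the capping protein subunits Capza2 (-0.81) and Capzb (-0.54), while none of the 8 further Arp2/3 subunits passed upward. The formin Fhod3 was higher by 2.53 (SE 0.24), nearly as much as Cobl, and in the cofilin cycle destrin (Dstn, -0.80) was lower and the cofilin phosphatase gene Ssh3 (1.90) higher.

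Which genes varied together with the 10 from mouse to mouse was described by Pearson's r of log2(CPM + 0.5) over 46 mice after the mean of each group had been subtracted. Depth, lane and tissue composition differed between these mice, and their part in r was not tested. With each member 14755 genes were compared. Actr2 and Actr3 were among the closest relatives of each other out of all genes, at r = 0.84, and Actr3 was next closest to Arpc5 (0.79), another subunit of the same complex. Pfn1 was closest to Ppp1r1a (0.78) and to Capzb (0.75), a subunit of the capping protein. Cfl1 was closest to Tpi1 (0.87) and Nedd8 (0.86), Pfn2 to Ppp2ca (0.85) and Strap (0.82), and Cfl2 to Vbp1 (0.78) and Nxph1 (0.77). Spire2 was closest to Cbarp (0.82) and Prmt2 (0.81), Spire1 to Zfr (0.74) and Zfp91 (0.72), Wasl to Rbm27 (0.80) and Med13 (0.79), and Actr2 to Ppp3r1 (0.84) before Actr3. Cobl was closest to Meis2 (0.88) and Plxdc1 (0.84). Among the 45 pairs of the 10 genes r ranged from -0.39 to 0.84 and exceeded 0.5 in 6, of which Pfn2 with Actr2 (0.71) and Pfn2 with Cfl1 (0.57) were the highest after the Arp2/3 pair.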

How the data were processed

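The deposited values were raw counts of reads per Ensembl gene, 1 file for each of 48 sequencing runs, which the authors made from TruSeq libraries of TRIZOL-extracted RNA by alignment to mm10 with STAR and counting with HTSeq. The annotation release and strand setting are not given in the sources used here. The 2 mice of the cross with 2 runs each had their runs summed, giving 46 mice. Gene names, exon lengths and GC content came from GENCODE on the same build, matched for 48349 of 48709 identifiers. Lengths are of all exons of a gene merged, and GC content is that of its longest transcript. The members and gene lists were chosen with earlier results of these data known.

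Levels are CPM with TMM factors over all 46 mice. Tests used edgeR 4.0.16 in R 4.3.3 (filterByExpr, TMM, glmQLFit, glmQLFTest, Benjamini-Hochberg over all genes tested), with the 2 groups compared or, for age, the 4 groups of the Fmn2 experiment. The SE is the log2 difference divided by the square root of F, and 95% intervals use the test's degrees of freedom. Alternatives were DESeq2 1.42.0 (the study's tool), other size factors, no filter, no fold minimum, a length and GC offset (splines with 5 degrees of freedom), lane, replicate number, left-out mice and summed near-identical libraries. One alternative, the cross without 2 libraries rich in choroid plexus markers, was chosen after seeing the data. Scripts were tested on simulated data. All members were named, with up to 4 genes of each other list that passed by smallest adjusted p, or the 1 with the smallest p where none passed, and the 2 genes closest to each member among those with a mean of at least 1 CPM. The labels number the mice, but nothing says which shared a litter, and p-values measure the spread between these samples.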

Additional observations from a re-analysis of the deposited data

Results flagged for a closer look

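In 70 sets of values (10 genes in the 7 groups with more than 3 mice), 4 had 1 mouse far from the others of its group by Dixon's test at the 95% level, where chance gives about 1 in 20. Spire2 was at 9.34 CPM in replicate 8 labelled FMN2 +/+ APP, against 12.8 to 14.9 CPM in the other 8 mice. Pfn1 was at 105.2 CPM in replicate 5 of the same label, against 123 to 141 CPM, and this library also held 5824 CPM of the choroid plexus gene Ttr. Replicate 4 of that label held more Ttr (8809 CPM) with Pfn1 at 127 CPM, and a link between both was not tested. Pfn2 was at 664 CPM in replicate 4 of the 3-month-old Fmn2+/+ mice, against 714 to 722 CPM. Cobl was at 32.9 CPM in replicate 7 labelled FMN2-/-_APP, against 8.4 to 13.9 CPM, in a library with 21.6 CPM of Cux2.

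The 8-month genotype difference was not that of 3 months for Spire2, the gap being -0.47 on the log2 scale, and for Cfl1, at -0.33, both by the interaction term of edgeR's fit. Neither call held under every alternative.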

How the results depend on the processing

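No member passed at 3 months, in the cross or at 4 months under any alternative run. At 8 months 1 member (Spire2) passed without the filter on low counts and 1 with DESeq2. In the age by genotype fit 0 passed without the filter, 0 with the length and GC offset and 0 with the near-identical libraries summed. For age in Fmn2+/+ mice 0 passed with other size factors, 0 without the filter, 0 with DESeq2 and 0 with those libraries summed. For age in Fmn2-/- mice 2 passed with the offset. Leaving out 1 mouse gave 0 to 0 members at 3 months, 0 to 5 at 8 months, 0 to 4 for age by genotype, 0 to 2 for age in Fmn2+/+ and 4 to 5 in Fmn2-/- mice, and 7 to 7 for the 4-month against the 3-month wild type. The causes were not tested.

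Values that changed sign were, with the offset, Spire2 -0.080, Pfn2 -0.020 and Cfl2 0.049 at 3 months, Spire1 -0.013 and Wasl -0.090 at 8 months, Actr3 -0.050 and Wasl -0.047 for age by genotype, Spire2 -0.16 for age in Fmn2+/+ mice, Cfl1 0.0020 and Actr3 0.0016 in the cross and Actr2 0.18 for the 4-month mice. With lane as a term they were Spire2 -0.046, Pfn2 -0.040 and Actr2 -0.078 at 3 months, Cobl -0.06 at 8 months and Pfn2 -0.0098 in the cross. Other changes were Spire2 -0.0016 for age in Fmn2+/+ mice with other size factors, Spire2 -0.00051 there and Cobl 0.0042 in Fmn2-/- mice with libraries summed, and Pfn2 -0.0068 in the cross without its choroid-rich libraries. With 1 mouse left out the ranges that crossed 0 were -0.0060 to 0.056 (Spire2), -0.019 to 0.016 (Pfn2) and -0.060 to 0.00039 (Cfl2) at 3 months, -0.039 to 0.11 (Wasl) and -0.059 to 0.40 (Cobl) at 8 months, -0.14 to 0.062 (Spire2), -0.0054 to 0.092 (Pfn2), -0.059 to 0.067 (Cfl1) and -0.089 to 0.19 (Actr2) for age in Fmn2+/+, -0.039 to 0.015 (Spire1), -0.054 to 0.00054 (Wasl) and -0.20 to 0.37 (Cobl) in Fmn2-/- mice, and -0.072 to 0.059 (Spire2) for the 4-month mice.

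The deviations of mice with the same number correlated at r -0.288 to 0.272 over pairs. With 3 to 7 such pairs in a comparison, this cannot decide whether the numbers pair the mice. The replicate block was fitted only to mice whose number occurs in both groups. It left 0 members called in each genotype comparison and turned Spire2 to -0.013 at 3 months and Pfn2 to -0.0029 in the cross. Calls over all genes went from 5 to 2 at 3 months and from 166 to 4 at 8 months. Leaving out 1 old Fmn2-/- mouse without a block already gave 4 to 10 calls at 8 months. The block and the loss of mice cannot be told apart in these counts. Over all genes the other counts at 3 months were 91 with DESeq2, 14 without the filter, 3 with other size factors, the offset or lane, and 3 to 49 with 1 mouse left out. At 8 months they were 733, 1124, 8 (offset), 3 (lane), 5 (summed) and 4 to 3087. For age by genotype, 635 became 1401 with DESeq2, 399 without the filter, 29 with the offset, 227 with libraries summed and 8 to 2791 with 1 mouse left out. For age in Fmn2+/+ mice 1570 became 998 with the offset and 469 to 2994 with 1 mouse left out, in Fmn2-/- mice 1097 became 566 and, with 1 mouse left out, 746 to 1239, and in the cross 240 became 600 with DESeq2 and 84 without the choroid-rich libraries, an alternative chosen after seeing the data. Depth limits the 8-month values most, where the lowest count of Spire2 in a library was 88 reads.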
